A study of Mus musculus with 8 samples.

Results

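The urothelium is the epithelium that lines the renal pelvis, ureter and bladder, and 9 of its genes were followed here in whole mouse kidneys. The genes were taken by name: the uroplakin genes Upk1a, Upk1b, Upk2, Upk3a and Upk3b, the basal cell genes Krt5, Krt15 and Trp63, and Psca. They are 9 of the 37583 genes counted, and all 9 passed the filter on low counts and were tested. RNA-seq was done on 4 libraries labelled knockout, from Six2Cre+ TFAP2A fl/fl TFAP2B fl/WT mice (Cre under Six2 control, both copies of Tfap2a and a single copy of Tfap2b floxed), and on 4 libraries labelled wildtype, from control littermates whose alleles the labels do not detail further. No age, sex or treatment is given, and nothing states that the libraries come from different animals, so p-values describe only how these libraries vary.

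Urothelium is layered. Umbrella cells at the urine surface carry plaques built from uroplakins, in which the tetraspanin Upk1a pairs with Upk2 and the tetraspanin Upk1b with Upk3a; basal cells rest on the matrix and hold the keratins Krt5 and Krt15 and the transcription factor Trp63. Six2 marks the progenitors of the nephron, whereas the lining of the pelvis develops from the ureteric bud. A whole kidney holds little pelvis, so these transcripts also serve as a measure of how much pelvis each library contains; in such bulk RNA, fewer urothelial cells and less RNA per cell cannot be told apart.

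On GRCm38 in GENCODE M21, Upk1a lies on chromosome 7 (30603092 to 30612847), Upk1b on chromosome 16 (38773184 to 38800328), Upk2 on chromosome 9 (44452715 to 44454976), Upk3a on chromosome 15 (85017141 to 85022547) and Upk3b on chromosome 5 (136038496 to 136046487). Krt5 (101707070 to 101712898) and Psca (74714839 to 74717069) are both on chromosome 15, Krt15 is on chromosome 11 (100131758 to 100135928) and Trp63 on chromosome 16 (25683763 to 25892102). Exons of the 9 genes share no base with an exon of another counted gene in that annotation. Krt5 shares 129 exon bases with Gm44323 on the opposite strand, which is not among the counted genes, and strand was not used in counting.

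The targeted genes encode AP-2 factors, so promoters were searched for the AP-2 letters GCCNNNGGC. RefSeq windows (GRCm38.p6) were matched for 4 of the 9 genes, Upk1a, Upk3a, Upk3b and Krt5, and the 250 bases before the start were read on both strands. None of the 4 holds GCCNNNGGC, which 13.7% of all 32851 windows hold, nor TATAAA, held by 12.4%. Of letters for families in the list of urothelial transcription factors, chosen after the sequences were seen, AGATAA, bound by GATA factors and held by 9.99% of windows, occurs 1 time in Upk3a, as its reverse complement TTATCT. The GC box letters GGGCGG, added at the same point and held by 32.7%, occur there 2 times. The Grainyhead-like letters AACCNGTT (1.79% of windows) and the FOXA letters TGTTTAC (3.17%) occur in none. A missing match says only that these letters are not in this window. The windows of the uroplakin relatives Upk3a (chr15:85016891-85017140, plus strand) and Upk3b (chr5:136038246-136038495, plus strand) and of the basal gene Krt5 (chr15:101712906-101713155, minus strand) are shown to set both classes side by side, 5′ to 3′, with matches in capitals.
Upk3a: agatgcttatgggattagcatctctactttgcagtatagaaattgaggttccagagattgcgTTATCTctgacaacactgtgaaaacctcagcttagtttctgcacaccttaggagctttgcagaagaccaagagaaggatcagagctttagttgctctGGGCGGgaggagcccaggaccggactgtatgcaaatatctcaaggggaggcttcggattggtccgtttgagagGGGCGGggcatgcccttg
Upk3b: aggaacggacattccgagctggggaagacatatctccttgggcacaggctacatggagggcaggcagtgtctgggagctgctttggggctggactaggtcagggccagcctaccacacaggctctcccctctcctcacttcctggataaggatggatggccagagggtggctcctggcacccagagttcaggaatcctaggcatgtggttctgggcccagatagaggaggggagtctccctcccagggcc
Krt5: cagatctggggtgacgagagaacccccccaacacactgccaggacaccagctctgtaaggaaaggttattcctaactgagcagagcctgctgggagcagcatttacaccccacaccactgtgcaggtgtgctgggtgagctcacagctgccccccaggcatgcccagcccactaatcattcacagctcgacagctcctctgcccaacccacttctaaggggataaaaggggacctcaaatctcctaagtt

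Gene counts totalled 13871861 to 16629301 per library, and values are CPM, read counts scaled to a common library size with TMM factors, as mean ± SD over 4 libraries. A count of 0 allows up to 0.222 CPM in the shallowest library (3 counts; counting error only). The targeted genes were not reduced under the knockout label: Tfap2a was at 5.05 ± 0.989 and 4.21 ± 1.08 CPM, and Tfap2b at 79.9 ± 20.3 and 78.2 ± 20.5 CPM under the knockout and wildtype labels. Counts over whole genes include exons outside a deleted part, and directions below rest on the labels alone. Adrenal transcripts (5 genes summed) stood at 909 CPM in knockout replicate 2 and 879 CPM in wildtype replicate 1 against at most 11.3 CPM elsewhere. Heat-shock transcripts (4 genes) stood at 743 and 1203 CPM in knockout replicates 2 and 4 against at most 344 CPM elsewhere. Results are given without those libraries where the call or direction changes.

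All 5 uroplakin genes were detected in every library, and all 5 were lowest in wildtype replicate 2. Upk1a, the tetraspanin that partners Upk2, measured 6.53, 9.17, 4.52 and 5.87 CPM under the knockout label (replicates 1 to 4) against 5.64, 2.69, 5.49 and 7.80 CPM under the wildtype label. Upk2, its partner, was at 2.60, 2.29, 1.93 and 2.54 CPM against 3.13, 0.625, 1.14 and 2.52 CPM in the same order. Both genes ran low in wildtype replicate 2, and the groups overlapped. The 10 reads of Upk2 in that library give a 95% Poisson interval of 0.300 to 1.15 CPM, below the lower bound of 1.86 CPM for the 41 reads of knockout replicate 1. It overlaps the interval of the next lowest library, wildtype replicate 3 (0.673 to 1.80 CPM). Intervals also overlapped for Upk1a (1.95 to 3.62 CPM, against 3.46 to 5.81 CPM in knockout replicate 3). The same held for Upk3b (2.16 to 3.91 CPM, against 2.40 to 4.23 CPM in wildtype replicate 3). For Upk1b and Upk3a the interval lay below that of the next lowest library.

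Both genes of the other plaque pair were also lowest in wildtype replicate 2. Upk1b measured 8.68, 9.30, 5.56 and 8.81 CPM under the knockout label (replicates 1 to 4) against 8.02, 2.63, 7.38 and 6.97 CPM under the wildtype label. Upk3a, its partner, was at 6.40, 6.31, 4.67 and 4.47 CPM against 5.71, 2.13, 4.04 and 4.84 CPM. Knockout replicate 3 was the lowest library labelled knockout for Upk1b but not for Upk3a, where knockout replicate 4 was lower. Upk3b, a minor relative of Upk3a that mesothelium also expresses, spanned the narrowest range of the 5, 2.08-fold, at 4.43, 6.12, 3.78 and 4.27 CPM against 4.62, 2.94, 3.22 and 5.81 CPM. For the other 4 uroplakin genes the highest library stood 3.01-fold (Upk3a) to 5.00-fold (Upk2) above the lowest.

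Psca, which encodes a lipid-anchored surface protein of urothelium and other epithelia, followed the uroplakins. It measured 13.4, 15.1, 7.19 and 14.02 CPM under the knockout label (replicates 1 to 4) against 12.4, 4.75, 7.95 and 12.8 CPM under the wildtype label. Knockout replicate 3 and wildtype replicates 2 and 3 were thus the 3 lowest libraries, and the remaining 5 lay between 12.4 and 15.1 CPM.

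All 3 basal genes had their lowest value in wildtype replicate 3, but within counting error of the next lowest library. Krt5 had 22 reads both there and in knockout replicate 3, with 95% Poisson intervals of 0.870 to 2.10 and 1.02 to 2.47 CPM. For Krt15 the intervals were 0.673 to 1.80 CPM there and 1.08 to 2.56 CPM in knockout replicate 3. For Trp63 they were 0.673 to 1.80 CPM there and 0.961 to 2.23 CPM in wildtype replicate 2. Krt5, the keratin that defines basal cells, measured 5.89, 4.52, 1.63 and 5.81 CPM under the knockout label (replicates 1 to 4) against 3.74, 1.88, 1.39 and 7.93 CPM under the wildtype label. Its 5.71-fold range was the widest of the 9 genes. Krt15, a further basal keratin, was at 3.42, 3.76, 1.70 and 3.14 CPM against 2.65, 1.81, 1.14 and 2.52 CPM. Trp63, the regulator of the basal state, was at 1.71, 1.97, 1.85 and 2.40 CPM against 2.31, 1.5, 1.14 and 2.32 CPM. Krt5 and Krt15 shared their 3 lowest libraries, knockout replicate 3 and wildtype replicates 2 and 3, while Trp63 in knockout replicate 3 lay within the range of the other libraries labelled knockout.

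**Figure D1:**
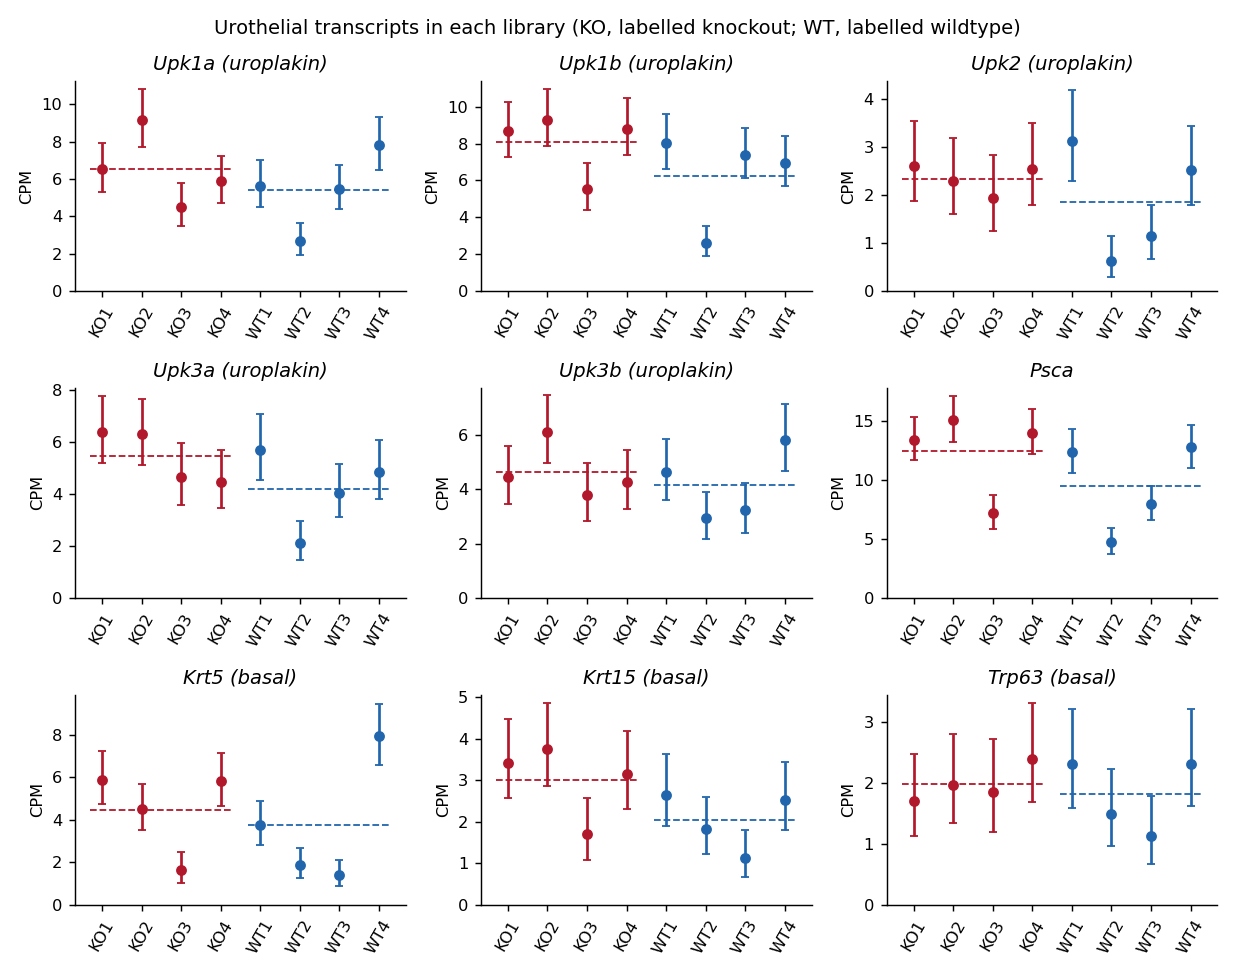
CPM of each urothelial gene (y axis) in the 8 libraries (x axis; KO, labelled knockout, red; WT, labelled wildtype, blue). Bars are 95% Poisson intervals and dashed lines group means; WT2 is lowest in all 5 uroplakin panels and in Psca, and WT3 in the 3 basal panels.

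Spread between libraries was well above counting error for every gene but Trp63. The variance of counts over that expected from counting alone was 1.62 for Trp63, 4.52 to 10.5 for the uroplakin genes, 5.10 for Krt15, 20.03 for Psca and 20.96 for Krt5. With 18 to 36 reads a library, Trp63 thus carried little beyond counting error. Knockout replicate 2 was the highest library for 5 of the 9 genes.

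Levels can be ordered between genes only per length, here CPM per kilobase of exon over all 8 libraries. The length joins all annotated exons of a gene and can exceed that of a single transcript, so the order also depends on the annotation. Psca led with 12.7 ± 4.39, above Upk3a in 8 of 8 libraries. Upk3a (4.41 ± 1.27) and Upk1a (4.197 ± 1.39) did not differ beyond their spread, with Upk3a higher in 4 of 8, and Upk1b followed at 3.43 ± 1.05, below Upk1a in 7 of 8 and above Upk2 in 8 of 8. Upk2 (1.93 ± 0.767), Krt5 (1.87 ± 1.08), Krt15 (1.42 ± 0.516) and Upk3b (1.25 ± 0.319) formed a run of overlapping levels, in which each gene was above the next in 4 to 5 of 8 libraries. Trp63 was lowest at 0.227 ± 0.0530, below Upk3b in 8 of 8.

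Summed over the 9 genes, urothelial transcripts amounted to 53.1, 58.5, 32.8 and 51.3 CPM under the knockout label (replicates 1 to 4) against 48.2, 20.9, 32.9 and 53.5 CPM under the wildtype label. The highest library held 2.80 times the level of the lowest. Libraries fell into the order knockout 2, wildtype 4, knockout 1, knockout 4, wildtype 1, wildtype 3, knockout 3, wildtype 2, so both labels occur among the 3 lowest and among the 5 highest. Group means were 48.9 ± 11.2 CPM for the libraries labelled knockout and 38.9 ± 14.8 CPM for those labelled wildtype. This difference of 10.1 CPM is smaller than either SD.

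Superficial and basal transcripts were then set against each other within each library, a ratio that does not depend on how much pelvis a library holds as long as its layers stay in proportion. Uroplakin genes summed to 11.002 to 33.2 CPM and basal genes to 3.66 to 12.8 CPM. The uroplakin sum was 2.60, 3.24, 3.94 and 2.29 times the basal sum in knockout replicates 1 to 4 and 3.12, 2.12, 5.81 and 2.19 times in wildtype replicates 1 to 4. Wildtype replicate 3 stood highest, with a 95% Wilson interval of 4.40 to 7.67 that overlapped only the interval of knockout replicate 3 (3.04 to 5.12). It combined the lowest basal sum with a uroplakin sum of 21.3 CPM, close to the 20.5 CPM of knockout replicate 3. Wildtype replicate 2, with the lowest uroplakin sum, had a basal sum of 5.19 CPM, the same as knockout replicate 3 to 3 digits.

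The log2 ratio averaged 1.56 ± 0.35 under the knockout label and 1.60 ± 0.68 under the wildtype label, a difference of -0.037. Per kilobase of exon the ratio was 3.40 to 6.73 under the knockout label and 3.16 to 9.26 under the wildtype label. Leaving out 1 library moved the difference in log2 ratio between -0.21 (without wildtype replicate 2) and 0.28 (without wildtype replicate 3).

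**Figure D2:**
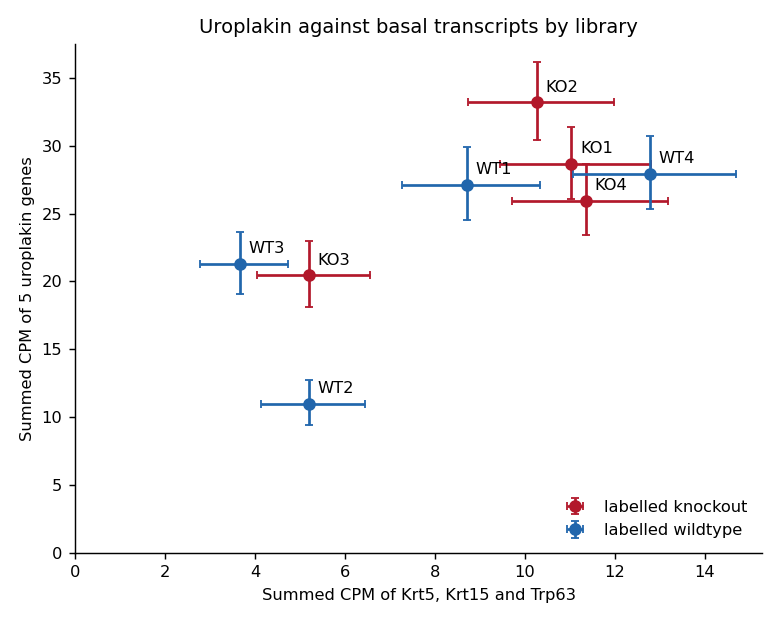
Summed CPM of the 5 uroplakin genes (y axis) against summed CPM of Krt5, Krt15 and Trp63 (x axis), 1 point per library with 95% Poisson intervals. KO1, KO2, KO4, WT1 and WT4 lie at the upper right; KO3, WT2 and WT3 have basal sums of 3.66 to 5.19 CPM, and WT2 alone has a uroplakin sum under 20 CPM.

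No urothelial gene passed the test between the labels. By edgeR's quasi-likelihood test, adjusted over all 14433 tested genes, 0 of 9 passed, against 0% of all genes, and 0 of 9 had an unadjusted p under 0.05, against 4% of all genes (578). The groups overlapped for all 9, while the groups did not overlap for 1.97% of all genes, and for 1.03% with the knockout label higher. DESeq2 and limma-voom also called 0 of the 9; over all genes tested, limma-voom called 0 and DESeq2 called 4, 0.0163%. Within the uroplakins, log2 differences, libraries labelled knockout minus wildtype, were 0.39 (SE 0.28, 95% interval -0.23 to 1.01) for Upk3a, 0.38 (SE 0.31, -0.31 to 1.06) for Upk1b, 0.34 (SE 0.42, -0.58 to 1.27) for Upk2, 0.27 (SE 0.31, -0.41 to 0.96) for Upk1a and 0.17 (SE 0.25, -0.39 to 0.73) for Upk3b. Each interval includes 0, and all 5 had an edgeR adjusted p of 0.957.

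Among the rest, Psca differed by 0.40 (SE 0.32, 95% interval -0.31 to 1.11), Krt15 by 0.57 (SE 0.32, -0.14 to 1.28), Krt5 by 0.26 (SE 0.55, -0.98 to 1.51) and Trp63 by 0.13 (SE 0.28, -0.48 to 0.74), with edgeR adjusted p of 0.957 for Psca and Krt15 and 0.968 for Krt5 and Trp63. All 9 estimates lay above 0, as did 51.3% of all genes. The 9 come from the same libraries and are not independent, and the part of pelvis content in them was not tested. Their median was 0.34, 0.34 for the uroplakins and 0.26 for the basal genes, against 0.01 over all tested genes. Single libraries set these sizes: leaving out wildtype replicate 2 gave a uroplakin median of 0.055 and leaving out wildtype replicate 1 gave 0.52, while the basal median became -0.012 when wildtype replicate 3 was dropped and 0.69 when wildtype replicate 4 was. Without both heat-shock libraries, Upk3b (-0.011) and Trp63 (-0.028) were below 0.

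**Figure D3:**
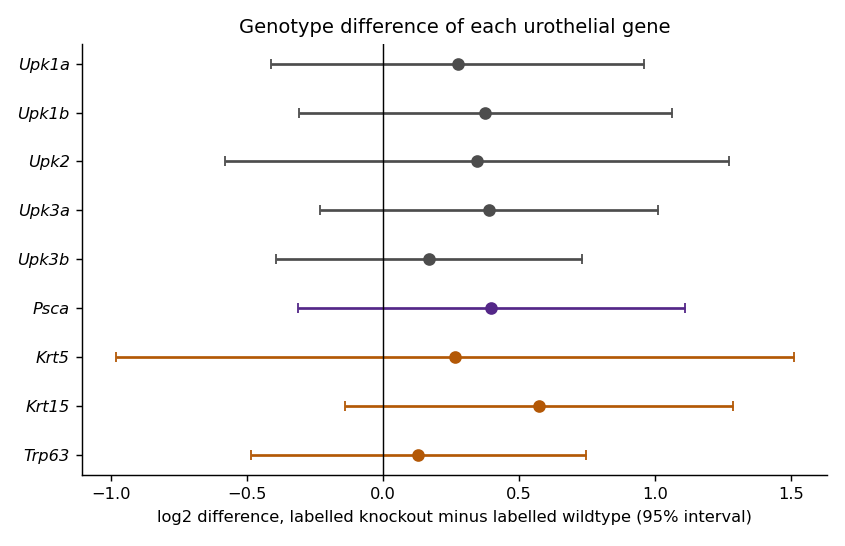
Fitted log2 difference, libraries labelled knockout minus those labelled wildtype (x axis), with 95% intervals for each of the 9 genes (uroplakins grey, Psca purple, basal genes orange). All 9 estimates lie right of 0, between 0.13 and 0.57, and all 9 intervals cross 0.

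The wider set of superficial and intermediate urothelial genes held 12 names, of which 10 were tested and 0 passed; 9 estimates were positive, 1 negative, and the median was 0.23. Krt20, the keratin of umbrella cells, was at 0.917 ± 0.372 CPM under the knockout label and 0.587 ± 0.358 CPM under the wildtype label, on 4 to 18 reads a library. Cldn4, a tight-junction gene, differed by 0.30 (SE 0.20; edgeR adjusted p = 0.957). Krt7 and Krt8, simple-epithelial keratins also made by collecting duct, were the most abundant, with means of 111 and 61.9 CPM over all libraries. Krt13 had 0 counts in all 8 libraries, and Upk3bl had at most 5.

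Of 12 further basal genes, 8 were tested and 0 passed, with 5 positive and 3 negative estimates and a median of 0.07. Sfn, a 14-3-3 protein of stratified epithelia, was at 1.79 ± 0.769 and 0.800 ± 0.454 CPM under the knockout and wildtype labels (log2 difference 1.15, SE 0.45; edgeR adjusted p = 0.957), the signalling gene Shh differed by 0.62 (SE 0.39) and the receptor gene Ngfr by -0.30 (SE 0.32). Perp and Itga6, adhesion genes expressed in many epithelia, had means of 102.5 and 111 CPM. Among markers of other stratified epithelia, Krt6a had 0 counts everywhere, Krt17 at most 8, and the epidermal genes Krt1, Krtdap and Lor at most 3, 1 and 8. Ivl, which encodes involucrin, had 2 to 20 counts (mean 0.604 CPM), and Krt10 had a mean of 9.66 CPM. Krt14, chosen after its values were seen, was at 3.23 CPM in wildtype replicate 4, the library with the most Krt5, against 0.442 to 1.40 CPM elsewhere.

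Among 10 transcription factors of urothelium, 10 were tested and 0 passed, with 9 positive estimates and a median of 0.22. Elf3, an epithelial ETS factor, was at 28.7 ± 5.90 and 23.2 ± 1.20 CPM under the knockout and wildtype labels (log2 difference 0.30, SE 0.14), Klf5 differed by 0.58 (SE 0.30), and Rarg, a retinoic acid receptor, by 0.20 (SE 0.13); edgeR adjusted p was 0.957 for all 3. The targeted gene Tfap2b is the most abundant of this list. It was lowest, at 51.8 CPM, in wildtype replicate 2, and highest, at 103 CPM, in knockout replicate 2, the same extremes as the urothelial sum.

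Tissues next to the pelvis were read from their own lists. In the smooth muscle and mesenchyme of the pelvis wall, which arteries share, 0 of 7 tested genes passed and 7 estimates were positive (median 0.47). Unadjusted edgeR p was under 0.05 for 2 of the 7, against 4% of all genes. Tagln and Acta2, contractile genes, differed by 0.54 (SE 0.22) and 0.47 (SE 0.19), and Cnn1 by 0.60 (SE 0.29). Summed, this list ranged from 153 to 240 CPM under the knockout label and from 141 to 184 CPM under the wildtype label.

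The list for the inner medulla and the papilla, the tip of the medulla that projects into the pelvis, held 10 tested genes. Of these, 0 passed the threshold, with 9 positive estimates (median 0.46). Unadjusted edgeR p was under 0.05 for 4 of the 10, against 4% of all genes. The groups did not overlap for 1 of the 10, Cryab, against 1.97% of all genes. Cryab was at 188 ± 36.0 and 119 ± 19.5 CPM under the knockout and wildtype labels (log2 difference 0.66, SE 0.16, edgeR adjusted p = 0.957). Aqp2, a water channel, was at 576 ± 231 and 333 ± 58.1 CPM with overlap, and Aqp3 differed by 0.31 (SE 0.13). Aqp2 and Slc5a3, the most abundant genes of this list, had means of 455 and 271 CPM over all libraries. Whether the sum of the list tracks papilla content was not tested. The sum was 1004 to 1849 CPM under the knockout label and 874 to 1169.6 CPM under the wildtype label. It was lowest in wildtype replicate 2, the library lowest in urothelial transcripts, but highest in knockout replicate 4, which was the fourth highest in them. Proximal tubule genes had 5 negative estimates among 6 tested and 0 passed (median -0.15), with unadjusted edgeR p under 0.05 for 1, Slc7a13. Slc7a13, an amino acid transporter, differed by -0.54 (SE 0.16; edgeR adjusted p = 0.957). The part of papilla or proximal tubule content in the urothelial values was not tested.

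Mesothelium, which covers the kidney surface and shares Upk1b and Upk3b with urothelium, was represented by 7 names. Of these, Muc16 is not analysed here, 3 were tested and 0 passed, with 2 positive estimates and 1 negative. Unadjusted edgeR p was under 0.05 for 2 of the 3, against 4% of all genes. Lrrn4 had at most 3 counts and Bnc1 at most 1. Msln, which encodes mesothelin, measured 2.34, 1.78, 1.19 and 2.67 CPM under the knockout label (replicates 1 to 4) against 0.544, 0.688, 0.442 and 2.13 CPM under the wildtype label (log2 difference 1.07, SE 0.48; edgeR adjusted p = 0.957). Wt1, shared with podocytes, differed by 0.75 (SE 0.33). Gpm6a, the most abundant of the list with a mean of 255 CPM, differed by -0.18 (SE 0.15). It ran against both urothelial profiles over the 8 libraries, with r = -0.678 for the uroplakins and -0.901 for the basal genes. Msln (r = 0.541 and 0.759) and Wt1 (r = 0.409 and 0.490) had positive correlations with these profiles, in the same order. Upk3b and Msln had their highest values in different libraries, knockout replicates 2 and 4. Leaving out Upk1b (log2 difference 0.38) and Upk3b (0.17) had to keep the uroplakin median at 0.34, as they lie on either side of it. The part of mesothelium in the urothelial values was not tested.

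Fat transcripts, from 5 adipose genes detected in every library, were low in the same libraries as the urothelial ones. They summed to 735, 741, 233 and 527 CPM under the knockout label (replicates 1 to 4) against 739.6, 267, 209.7 and 407 CPM under the wildtype label. Knockout replicate 3 and wildtype replicates 2 and 3 were the 3 lowest libraries in this list, as they were in the urothelial sum. Fabp4 and Cfd, the most abundant, differed by 0.40 (SE 0.42) and 0.64 (SE 0.62), and 0 of 5 passed. Red cell genes (4) were also lowest in these 3 libraries, at 102 to 117 CPM, against 145 to 3024 CPM elsewhere. Of 5 exocrine pancreas genes, Cpa1 and Pnlip were at 0 in all libraries, Ctrb1 had at most 2 counts and Cel at most 13, while Cela1 had a mean of 72.3 CPM (53.6 to 96.4 CPM). The part of fat or blood in the urothelial values was not tested.

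Pairs of single genes, chosen with earlier results known, showed which transcripts varied together over the 8 libraries (log2 CPM, prior count 2; exact permutation tests, two-sided; 8 pairs, adjusted by Benjamini-Hochberg). Upk1b and Upk3a had Pearson r = 0.905 (exact permutation p = 0.0145, adjusted 0.0290) and Spearman rho = 0.595 (exact permutation p = 0.132, adjusted 0.242). Upk2 and Upk3a had r = 0.895 (exact permutation p = 0.00558, adjusted 0.0258) and rho = 0.714 (exact permutation p = 0.0576, adjusted 0.185). For Krt5 and Krt15, r was 0.842 (exact permutation p = 0.0112, adjusted 0.0290) and rho 0.690 (exact permutation p = 0.0694, adjusted 0.185). For these 3 pairs Pearson correlation thus passed and rank correlation did not; the other pairs within each class were not tested. Krt5 also varied with Actg2, an actin of visceral smooth muscle, with r = 0.774 (exact permutation p = 0.00645, adjusted 0.0258) and rho = 0.857 (exact permutation p = 0.0107, adjusted 0.0857).

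All these pairs had a lower r with extreme libraries left out. Leaving out extremes narrows the range of the first gene, which by itself tends to lower r. The libraries left out also depended on the first gene, so these values cannot show which relations rested on single libraries. Without the 2 libraries farthest from the median of the first gene, r was 0.581 for Upk1b with Upk3a, 0.313 for Upk2 with Upk3a, 0.622 for Krt5 with Krt15 and 0.679 for Krt5 with Actg2 (n = 6; exact permutation p of 0.229, 0.564, 0.183 and 0.149). Taken as deviations from group means, r was 0.884, 0.874, 0.870 and 0.787, with the difference between labels taken out. Across classes, Upk3a and Krt5 had r = 0.539 (exact permutation p = 0.157, adjusted 0.197) and rho = 0.571 (exact permutation p = 0.151, adjusted 0.242), which did not pass. Upk3a with Aqp2 (r = 0.526, rho = 0.500; exact permutation p = 0.173 and 0.216), Upk3b with Msln (r = 0.604, rho = 0.381; exact permutation p = 0.123 and 0.360) and Krt5 with the proximal tubule gene Slc34a1 (r = -0.474, rho = -0.452; exact permutation p = 0.230 and 0.267) did not pass either. Without the 2 extreme libraries these 4 pairs had r of 0.402, 0.392, 0.543 and 0.134.

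Genes were also ranked by how closely their log2 CPM over the 8 libraries followed the mean standardized uroplakin profile, as a description with no test, among 13677 other genes with a mean of at least 1 CPM. The 8 nearest had r of 0.958 to 0.983, and included Tmem198, Gsdmc3, Parp2, Kctd6, Fst and Gsdmc2 and 2 genes with no symbol. Gsdmc3 and Gsdmc2 are gasdermin genes with near-identical copies, so their counts are uncertain. Gsdmc3 measured 3.55, 4.08, 1.70 and 3.07 CPM under the knockout label (replicates 1 to 4) against 2.38, 0.188, 1.64 and 3.16 CPM under the wildtype label. Gsdmc2 was at 6.53, 5.92, 2.74 and 5.07 CPM against 6.39, 0.875, 3.98 and 5.48 CPM. Fst, which encodes the activin-binding protein follistatin, was at 27.2, 24.1, 15.3 and 21.8 CPM against 19.1, 5.69, 15.0 and 19.2 CPM. All 3 were lowest in wildtype replicate 2, like the uroplakins. With 8 libraries and this many genes, close matches also include broadly expressed genes such as Parp2.

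Listed urothelial genes were spread over the whole ranking. Krt19 and Krt18 came closest to the uroplakin profile, ranking 50 and 79 (r = 0.889 and 0.866). Cldn4, Tfap2b and Sprr1a followed at 128, 182 and 206 (r = 0.838, 0.815 and 0.808), while Krt8 ranked 4803 (r = 0.219). From the list of further basal genes, Perp ranked 6020, Itga6 8663 and Ngfr 11129. Against the basal profile these 3 ranked 9603, 3908 and 11690. Sfn, Itgb4, Krt14, Shh and Cd44, of the same list, went the other way, with r of 0.291 to 0.577 for both profiles. Sfn ranked 1644 and 1729 and Itgb4 2061 and 1548 for the uroplakin and basal profiles. The transcription factor Ovol1 ranked 13564 for the uroplakin profile, with r = -0.830. Krt19, a keratin of urothelium and collecting duct, measured 12.4, 8.60, 5.41 and 12.5 CPM under the knockout label (replicates 1 to 4) against 9.65, 2.81, 5.24 and 13.1 CPM under the wildtype label. Sprr1a, a cornified envelope protein gene, ranged from 4.38 CPM in wildtype replicate 2 to 23.1 CPM in wildtype replicate 4. Snx31, a sorting nexin known to bind uroplakin-bearing vesicles, went the other way, at 48.9 CPM in knockout replicate 3 and 45.1 CPM in wildtype replicate 2 and lowest, at 18.6 CPM, in knockout replicate 1 (r = -0.543). Krt19, Krt18, Sprr1a, Snx31 and Ovol1 were chosen after their values were seen.

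Nearest to the basal profile were Pex11a, Plcxd1, Gmppa, Dhtkd1, Eml3, Pabpc4, Nsg1 and Pxmp4, with r of 0.935 to 0.972. None of the 8 belongs to a list used here, and Pex11a, a peroxisomal membrane protein gene, ranged only from 59.2 to 84.5 CPM. Psca followed the uroplakin profile at r = 0.953 and the basal profile at r = 0.809. Upk3b followed the profile of the other uroplakins at r = 0.818 and that of the basal genes at r = 0.816, the smallest margin among the 5 uroplakin genes.

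**Figure D4:**
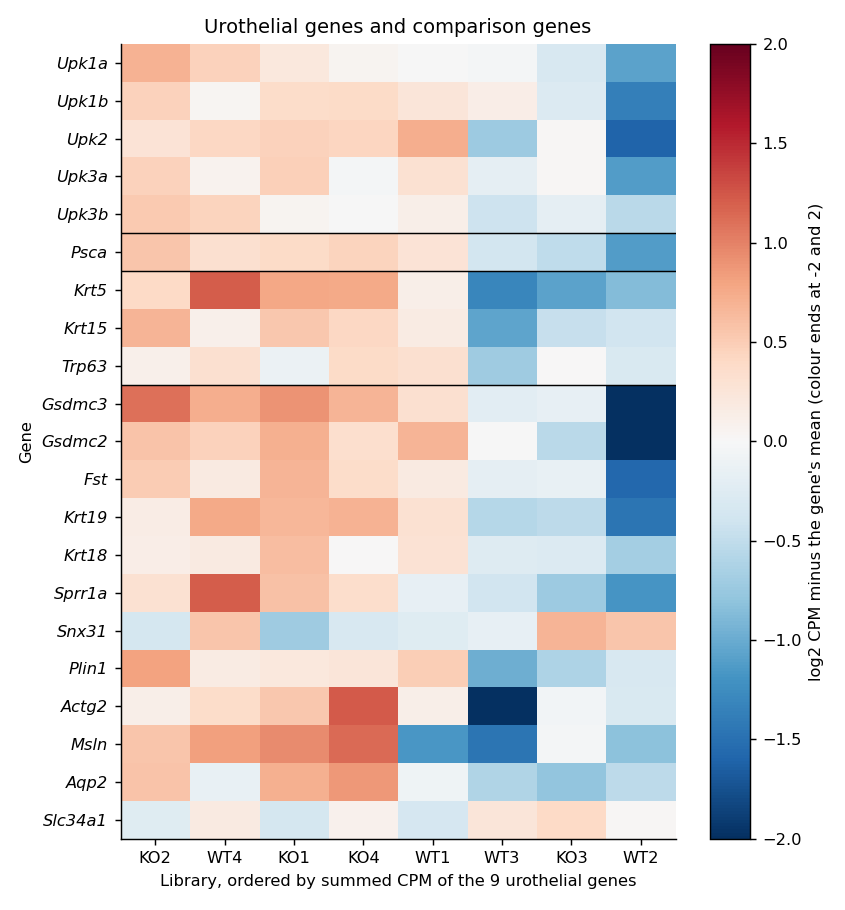
Each row is a gene and each column a library, ordered by the summed CPM of the 9 urothelial genes; colour is log2 CPM minus the gene's mean over libraries, red above and blue below. Lines part uroplakins, Psca, basal genes and comparison genes; KO3, WT2 and WT3, at the right, are blue in most rows, and Snx31 has the opposite pattern in KO3 and WT2.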

How the data were processed

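Whole-kidney RNA was sequenced in 8 libraries, made with a strand-keeping kit (labels' protocols). The deposited values are whole-number read counts per Ensembl gene, not normalized; per the submitters' processing notes, STAR, HTSeq and edgeR were used and the build was mm9. No version or annotation is named in the labels. Per the file names, reads were counted without regard to strand. Each file lists 37583 genes, and GENCODE M21 (GRCm38) gave symbols for 32860; coordinates and exon lengths come from there, and none was converted. The 5 lines that name no gene were left out; reads outside genes made up 11.6% to 16.2%. Counts totalled 13871861 to 16629301 per library.

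The main test was edgeR 4.0.16 (R 4.3.3): quasi-likelihood, robust, TMM, filterByExpr (minimum count 10, total 15), genotype as the only term, two-sided, Benjamini-Hochberg over 14433 genes, threshold 0.05. It was tested on simulated data. Intervals are 95%; Poisson and Wilson intervals cover counting error only, since PCR copies count as reads. Class medians, sums and ratios carry no test. No library was a copy of another (chi-square per gene 10.1 to 78.4 over pairs). Whether replicate numbers pair the libraries could not be decided. The members and lists were chosen with earlier results of these data known. Named genes are the 9, from each list the 3 lowest p and 2 most abundant (a selection of these is given, and 1 gene is not reported here), the nearest 8 to each class profile, and the targeted genes. Alternatives were other normalizations and filters, DESeq2 1.42.0, limma-voom (limma 3.58.1), a replicate block and libraries left out. Figures used matplotlib 3.10.9.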

Additional observations from a re-analysis of the deposited data

Results flagged for a closer look

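Values were checked for a library far from the other 3 of its group, by the gap to the nearest divided by the range, against Dixon's 95% critical value for 4 samples. Chance gives about 1 in 20 groups, and 7 of 68 combinations of group and measure passed. Measures other than the 9 genes were added to this check after their values were seen. Upk1b in knockout replicate 3, at 5.56 CPM, stood below the other libraries labelled knockout (8.68 to 9.30 CPM). In wildtype replicate 4, Krt14 was at 3.23 CPM (others 0.442 to 0.815 CPM) and Msln at 2.13 CPM (others 0.442 to 0.688 CPM). Summed adrenal transcripts were at 909 CPM in knockout replicate 2 (others 5.63 to 11.3 CPM) and 879 CPM in wildtype replicate 1 (others 4.51 to 5.18 CPM). Summed red cell transcripts were at 3024 CPM in knockout replicate 1 (others 117 to 553 CPM) and 556 CPM in wildtype replicate 1 (others 102 to 145 CPM).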

How the results depend on the processing

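None of the 9 genes was called under any of 17 alternatives, including other scalings and filters, DESeq2, limma-voom and each library left out. Over all genes the count was 0 under the main settings, 4 by DESeq2, 1 without both heat-shock libraries and 0 to 2 with 1 library left out (1 without knockout replicate 3 or 4, 2 without wildtype replicate 1). The 9 estimates stayed above 0 except without wildtype replicate 3 and without both heat-shock libraries, where 2 turned negative; the cause was not tested. With 1 library left out, Krt5 ran from -0.012 to 0.94 and Trp63 from -0.041 to 0.27 on the log2 scale, and without the heat-shock libraries Upk3b was at -0.011 and Trp63 at -0.028. The uroplakin median ran from 0.055 to 0.52 and the basal median from -0.012 to 0.69. The correlation of Krt5 with Slc34a1 turned to 0.134 without its 2 extreme libraries. Replicate numbers are shared by the labels, and deviations of same-numbered libraries correlated at 0.226, -0.230, 0.282 and 0.293. Knockout replicates 1 and 4 correlated best with their own number, but replicates 2 and 3 with wildtype replicates 1 (0.453) and 2 (0.352). These values cannot decide whether the numbers pair the libraries. With the replicate block, 0 of the 9 genes and 0 genes in all passed, with 1075 at an unadjusted p under 0.05 against 578 without it. Krt15 was among those, with an edgeR p of 0.0386 (adjusted 0.668) under the block. Of the 9 genes, Trp63 (18 to 36 reads a library) and Upk2 (10 to 46) had the lowest depth.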
